A study of Mus musculus with 9 samples.

Results

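The 7 Ms4a genes Ms4a1, Ms4a4b, Ms4a4c, Ms4a6b, Ms4a6c, Ms4a6d and Ms4a7 were taken by their symbols from a table of read counts of 34714 genes in mouse brain cortex. Ms4a6b, Ms4a6c and Ms4a6d held 80.2% to 95.7% of the counts of the 7 in each library. All 3 were at higher levels in every library of mice with experimental autoimmune encephalomyelitis (EAE) than in any naive library. The same held for 12.2% of all tested genes. In mice with EAE given the gold cluster Au18(L-NIBC)14, Ms4a6b, Ms4a6c and Ms4a7 were lower than in untreated EAE without overlap of the libraries. So were 9.28% of all tested genes, and the family had been picked with its EAE levels known. For Ms4a6b the lowest EAE and the highest treated library were all but level. Ms4a7 had enough counts to be tested mainly through its EAE libraries. None of the 4 members with enough counts passed edgeR's test in that comparison, where 0.22% of all tested genes did. With DESeq2 Ms4a6c passed there, as did 3.84% of all genes with a DESeq2 adjusted p. Ms4a1, the B cell gene, had counts in 1 naive library and none in the EAE and treated libraries. The members are family members chosen by name with earlier results of these libraries known, in which the measured rise of Ms4a6c in EAE against naive had drawn attention to the family, so the values of that comparison are a description, and nothing is read from which members passed in it.

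The MS4A genes encode small proteins that cross the membrane 4 times, as CD20 does, with both ends in the cytoplasm. Ms4a1 is the gene of CD20, a surface marker of B cells and the target of B cell-depleting antibodies in multiple sclerosis. Ms4a4b is known from T cells, where it modulates signalling. Ms4a4c, Ms4a6b, Ms4a6c and Ms4a6d are found in monocytes, macrophages and other myeloid cells, and Ms4a7 marks macrophages at the borders of the brain and macrophages derived from monocytes more than resident microglia. Myeloid MS4A genes are also known from human genetics of Alzheimer's disease, where the locus bears on soluble TREM2, a receptor of microglia.

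RNA had been purified from cortex, enriched for poly(A) RNA and sequenced for 3 groups of 3 libraries: naive mice, mice with EAE, and EAE mice given Au18(L-NIBC)14. EAE is an autoimmune attack on brain and spinal cord that serves as a model of multiple sclerosis, and Au18(L-NIBC)14 is a gold nanocluster whose stated target in the series title is the oligomerisation of ASC, the adaptor of inflammasomes. The sources used here do not give the strain, age or sex of the mice, how EAE was induced, the dose, or when tissue was taken. The labels number the mice 1 to 3 in each group and do not tell whether material was pooled, so the p-values measure the spread between these libraries only. Library totals ran from 26972179 to 45243553 counts, a single count was worth 0.0221 to 0.0371 CPM (counts per 1000000 counts of the library, in all that follows scaled by the TMM factors of 0.982 to 1.02), and no library was a copy of another. Genes of cortical neurons summed to 1750 to 1809 CPM in naive, 1463 to 1688 in EAE and 1846 to 1939 in treated libraries. The EAE libraries were thus below all others in this sum. Whether that difference bears on the levels of the members was not tested. Some libraries stood apart in genes of tissue next to the cortex: choroid plexus genes summed to 899 CPM in EAE 1 and 7.61 to 105 elsewhere, and striatal genes ranged from 131 to 990 within the naive group.

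The family sits in 1 cluster on mouse chromosome 19. In GENCODE M21 on GRCm38, 19 of the 21 Ms4a symbols of the table lay within 678.6 kb (chr19:10962293-11640851), and the 7 members spanned 355.2 kb of it. From low to high coordinate the members are Ms4a1 (chr19:11249675-11266241, minus strand), Ms4a7 (chr19:11321039-11336146, minus), Ms4a4c (chr19:11404770-11427246, plus), Ms4a4b (chr19:11443553-11467055, plus), Ms4a6c (chr19:11469366-11482192, plus), Ms4a6b (chr19:11516512-11531256, plus) and Ms4a6d (chr19:11586604-11604849, minus). Among the members, Ms4a6c and Ms4a6b are neighbours, as are Ms4a4c and Ms4a4b. Among 170 pairs of Ms4a promoters (250 bases before the RefSeq start), the longest run of identical bases was 48 bases in the pair Ms4a6b and Ms4a6c and 20 bases in the pair Ms4a4b and Ms4a4c, and no other pair shared a run over 12 bases. Both pairs are given here on the plus strand of GRCm38.p6, 5′ to 3′, as RefSeq gives them, with capitals for runs of at least 12 bases found in both printed stretches of the pair. The stretches lie at chr19:11518339-11518482 for Ms4a6b, chr19:11469221-11469365 for Ms4a6c, chr19:11443428-11443552 for Ms4a4b and chr19:11407531-11407660 for Ms4a4c. Those of Ms4a6c and Ms4a4b end just before the first base of the gene and hold no annotated exon. Those of Ms4a6b and Ms4a4c lie inside the longer gene models of GENCODE, that of Ms4a4c between exons, while the last 30 bases of the Ms4a6b stretch belong to an exon of an alternative transcript. The Ms4a6b stretch ends 77 bases before the RefSeq start for that reason, inside the run of 48 bases that it shares with Ms4a6c. The 5 lower-case bases that end the Ms4a6c stretch still belong to that run.
Ms4a6b: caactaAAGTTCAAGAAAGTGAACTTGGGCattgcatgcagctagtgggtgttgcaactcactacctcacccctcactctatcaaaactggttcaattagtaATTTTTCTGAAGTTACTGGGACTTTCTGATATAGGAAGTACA
Ms4a6c: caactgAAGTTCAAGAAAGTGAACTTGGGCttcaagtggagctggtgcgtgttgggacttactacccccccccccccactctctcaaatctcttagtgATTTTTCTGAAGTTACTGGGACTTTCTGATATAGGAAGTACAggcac
Ms4a4b: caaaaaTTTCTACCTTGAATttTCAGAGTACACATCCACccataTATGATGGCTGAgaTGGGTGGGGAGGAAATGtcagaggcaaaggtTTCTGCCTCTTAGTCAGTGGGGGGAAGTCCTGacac
Ms4a4c: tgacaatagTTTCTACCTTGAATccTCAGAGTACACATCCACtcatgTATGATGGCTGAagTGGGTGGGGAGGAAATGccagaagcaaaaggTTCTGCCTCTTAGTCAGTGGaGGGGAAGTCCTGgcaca
In the printed stretches of the Ms4a6 pair, 66 bases stood in 2 shared runs, of 24 bases and of 42 bases out of the 48, and in the Ms4a4 pair 92 bases stood in 6 shared runs of 12 to 20 bases. The transcripts shared less. No stretch of 100 bases of the transcripts of Ms4a6b, Ms4a6d, Ms4a7 or Ms4a1 occurred in another Ms4a gene, and the share was 1.66% for Ms4a4c and 0.473% for Ms4a4b. At 50 bases the share was 5.85% for Ms4a6c, 3.44% for Ms4a6b, 2.31% for Ms4a6d and 8.19% for Ms4a4c. The read length is not given in the sources used here, so the reads that could fit more than 1 of these genes were not counted.

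Ms4a6c had 0.268, 0.587 and 0.448 CPM in naive 1, 2 and 3, 1.88, 4.82 and 3.16 CPM in EAE 1, 2 and 3, and 1.07, 1.59 and 0.588 CPM in treated 1, 2 and 3. Every EAE library was above every other library. Treated 3 and naive 2 were level, and their order depends on the scaling: before it, treated 3 was at 0.577 and naive 2 at 0.593 CPM. The group means were 0.434 ± 0.160 CPM in naive, 3.29 ± 1.47 in EAE and 1.08 ± 0.501 in treated mice (SD, n = 3 each). The mean in EAE was 7.57-fold that in naive mice and 3.03-fold that in treated mice. The gene encodes a myeloid member whose function is less well known than that of CD20. Its exons overlap those of BE692007, a processed transcript on the opposite strand, over 1088 of 2050 bases (53.1%). The strand setting of the counting is not given in the sources used here, so reads of Ms4a6c and BE692007 cannot be told apart there.

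BE692007 itself was counted at 0.201, 0 and 0.310 CPM in naive 1 to 3, 0.941, 1.52 and 1.67 in EAE 1 to 3, and 0.366, 0.806 and 0.478 in treated 1 to 3. Its libraries followed the order of groups seen for Ms4a6c. Its fitted log2 difference between EAE and naive was 2.95 (SE 0.66), against 2.95 (SE 0.48) for Ms4a6c. How much of either value comes from the other strand was not tested.

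Ms4a6b, the neighbour of Ms4a6c, had 0.782, 0.477 and 0.793 CPM in naive 1, 2 and 3, 1.17, 4.69 and 1.63 CPM in EAE, and 1.05, 1.16 and 1.10 CPM in treated mice. The 3 groups did not overlap, but EAE 2 stood far above the other EAE libraries, and EAE 1 at 1.17 was next to treated 2 at 1.16 CPM. The means were 0.684 ± 0.179, 2.50 ± 1.91 and 1.10 ± 0.0560 CPM (SD, n = 3 each). Without EAE 2 the log2 difference between EAE and naive was 1.02 in place of 1.85, and that between treated and untreated EAE was -0.34 in place of -1.17.

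Ms4a6d, the third myeloid Ms4a6 gene, had 0.693, 0.843 and 0.931 CPM in naive 1, 2 and 3, 1.85, 3.46 and 4.20 CPM in EAE, and 0.952, 2.44 and 0.772 CPM in treated mice. EAE libraries were again all above naive libraries. Treated 2 lay above EAE 1, and treated 3 lay within the naive range, so the treated group overlapped both others. The means were 0.822 ± 0.120, 3.17 ± 1.20 and 1.39 ± 0.917 CPM (SD, n = 3 each).

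Ms4a7, the gene of border and monocyte-derived macrophages, had 0.112, 0 and 0.310 CPM in naive 1, 2 and 3 (5, 0 and 9 counts), 0.487, 0.712 and 0.973 CPM in EAE (15, 22 and 28 counts), and 0.171, 0.427 and 0 CPM in treated mice (7, 18 and 0 counts). The EAE libraries did not overlap either other group. The means were 0.141 ± 0.157, 0.724 ± 0.243 and 0.199 ± 0.215 CPM (SD, n = 3 each). The zeros in naive 2 and treated 3 allow up to 3 counts, or 0.111 and 0.108 CPM before TMM scaling. Such a limit is higher where 1 fragment gave more than 1 count, and these limits and the intervals below cover counting error only.

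Ms4a4c, also a myeloid gene, had 4, 2 and 0 counts in naive 1, 2 and 3, 2, 31 and 28 counts in EAE, and 4, 6 and 3 counts in treated mice. In CPM, EAE 2 and EAE 3 were at 1.00 and 0.973, and the other 7 libraries were between 0 and 0.142. EAE 1 was thus at the level of naive mice. Ms4a4b, the T cell member, had 4, 0 and 3 counts in naive, 2, 15 and 8 in EAE, and 6, 3 and 0 in treated mice. Its pattern was the same at lower counts, with EAE 2 at 0.485 CPM, EAE 3 at 0.278 CPM and EAE 1 at 0.0649 CPM, and its EAE group overlapped both others.

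Ms4a1 had 4 counts in naive 2 (0.147 CPM) and 0 counts in the other 8 libraries. At 3 counts, a count of 0 allows up to 0.0981, 0.0987 and 0.104 CPM before scaling in EAE 1, 2 and 3, and more where 1 fragment gave more than 1 count, so B cell RNA carrying CD20 was not detectable in EAE cortex above those levels. No fold is given for this gene.

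**Figure D1:**
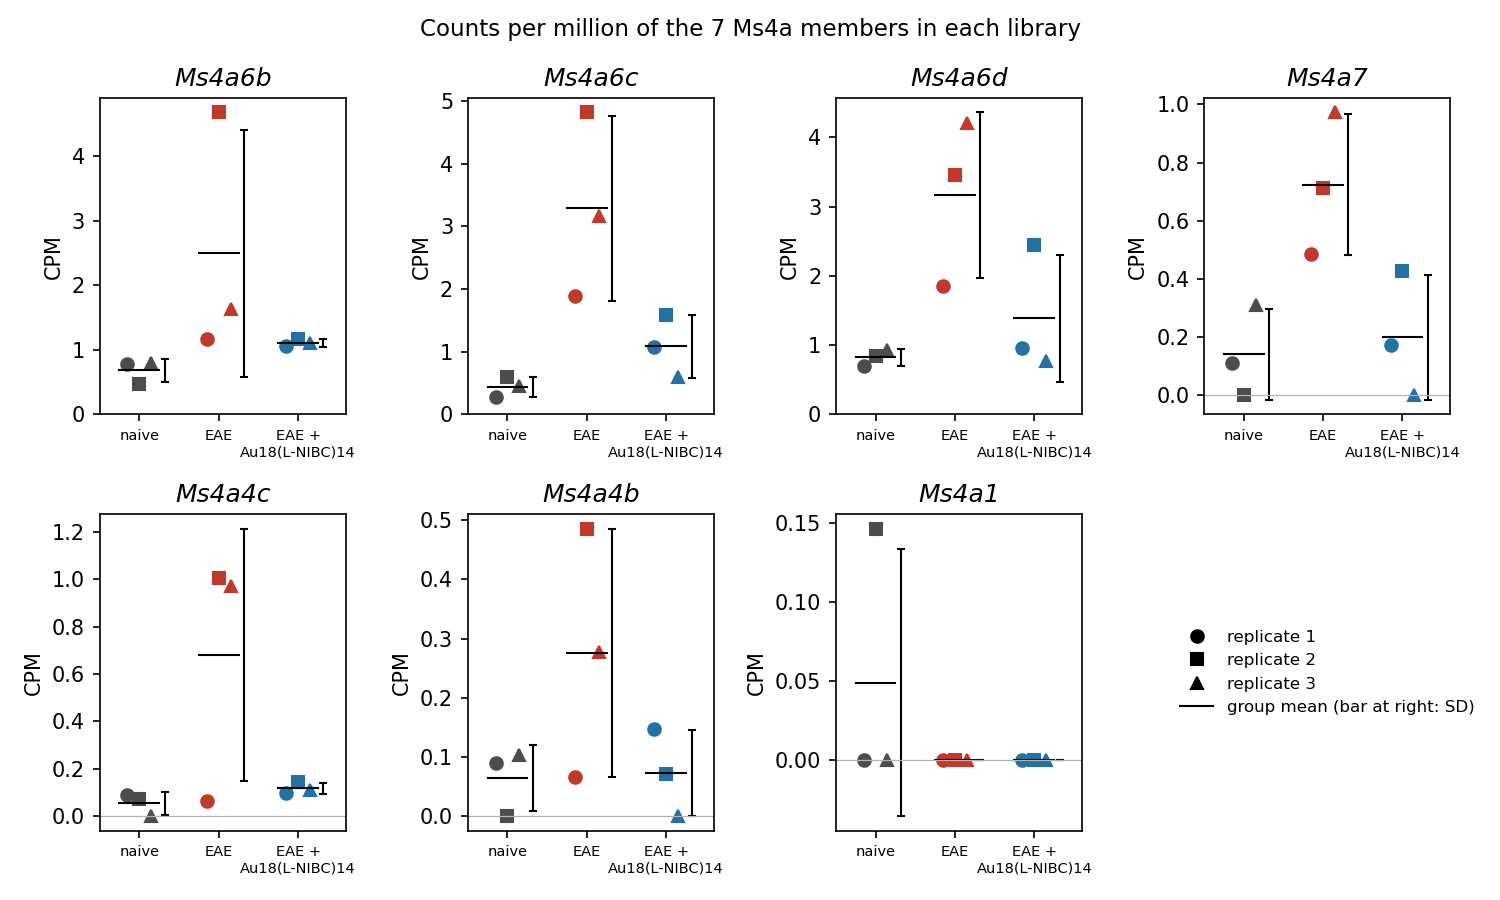
Level of each of the 7 members in CPM (vertical axis, a linear scale of its own for each gene) in the 9 libraries, by group (horizontal axis). Points are libraries, with the replicate number as the symbol, horizontal lines are group means and bars are the SD of 3 libraries. EAE 1, the red circle, is the lowest EAE library for each of Ms4a6b, Ms4a6c, Ms4a6d, Ms4a7, Ms4a4c and Ms4a4b, and Ms4a1 is at 0 in 8 of the 9 libraries.

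The same libraries were high or low across members. EAE 1 was the lowest EAE library for each of the 6 members with counts in EAE. Treated 2 was the highest treated library for Ms4a6b, Ms4a6c, Ms4a6d, Ms4a7 and Ms4a4c, though not for Ms4a4b. Over all 7 members the summed level was 2.03, 2.13 and 2.58 CPM in naive 1 to 3, 5.52, 15.2 and 11.2 in EAE, and 3.49, 5.83 and 2.57 in treated mice. Treated 3 lay within the naive range of this sum, just below naive 3.

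Levels of different genes were compared per kilobase of annotated exon. On that scale (CPM per kb, mean ± SD, n = 3) Ms4a6d was the most abundant member in naive cortex at 0.474 ± 0.0693, followed by Ms4a6c at 0.212 ± 0.0779 and Ms4a6b at 0.152 ± 0.0400. The latter 2 did not differ beyond their spread. Ms4a7 at 0.0316 and Ms4a4c at 0.0310 came next in naive cortex, far lower, and Ms4a1 at 0.00790 and Ms4a4b at 0.00732 were the lowest. In EAE the order on the scale of CPM per kb was Ms4a6d at 1.83 ± 0.694, Ms4a6c at 1.60 ± 0.718, Ms4a6b at 0.557 ± 0.427, Ms4a4c at 0.388 ± 0.304, Ms4a7 at 0.163 ± 0.0546 and Ms4a4b at 0.0314 ± 0.0239. Ms4a6d and Ms4a6c lay within each other's spread in EAE, as did Ms4a6b and Ms4a4c. In treated mice the order began with Ms4a6d at 0.801 ± 0.529, Ms4a6c at 0.529 ± 0.244 and Ms4a6b at 0.246 ± 0.0125 CPM per kb. These levels depend on gene models of unequal length, such as 4485 exon bases for Ms4a6b against 1735 for Ms4a6d.

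The Ms4a6 genes together took between 80.2% and 95.7% of the members' counts in each library. Within the Ms4a6 counts, Ms4a6c made up 15.4%, 30.8% and 20.6% in naive 1, 2 and 3, 38.4%, 37.2% and 35.1% in EAE, and 34.9%, 30.6% and 23.9% in treated mice. EAE libraries were all above naive libraries in this share, and treated libraries overlapped the naive range. At this depth the share was loosely fixed in naive mice: the exact 95% binomial interval was 18.7% to 45.1% in naive 2 and 32.4% to 42.1% in EAE 2. The overlap of Ms4a6c with BE692007 bears on this share as well.

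In the comparison of EAE with naive cortex, the fit across all 18644 tested genes held 4 of the members, since Ms4a1, Ms4a4b and Ms4a4c had too few counts. Ms4a7 passed that filter mainly through its EAE libraries. The fitted log2 differences were 2.95 (SE 0.48) for Ms4a6c, 2.34 (SE 0.94) for Ms4a7, 1.95 (SE 0.47) for Ms4a6d and 1.85 (SE 0.49) for Ms4a6b, with a median of -0.01 over all tested genes. Without naive 3 the value of Ms4a7 was 3.38. Of the 4 tested members, 1 (Ms4a6c) passed the adjusted threshold of 0.05, where 0.987% of all tested genes did in either direction. DESeq2, which kept Ms4a4c in, passed 4 members, where 5.68% of genes with a DESeq2 adjusted p passed. In 4 of the 4 the EAE libraries were all above the naive libraries, as in 12.2% of all tested genes. The choice of the members used this comparison, so nothing is read from these counts.

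In the comparison of treated with untreated EAE, which shares the EAE libraries with the one above, the question is whether the gold cluster was accompanied by other levels of these genes. None of the 4 tested members passed (edgeR's quasi-likelihood test with Benjamini-Hochberg adjustment), where 0.22% of all tested genes did, and 15.1% of all tested genes had an unadjusted p under 0.05. The log2 difference was -1.58 for Ms4a6c (SE 0.44, 95% interval -2.56 to -0.60, edgeR adjusted p = 0.157). It was -1.17 for Ms4a6b (SE 0.47, interval -2.23 to -0.12, edgeR adjusted p = 0.284) and -1.17 for Ms4a6d (SE 0.44, interval -2.17 to -0.17, edgeR adjusted p = 0.259). For Ms4a7 it was -1.74 (SE 0.87, interval -3.69 to 0.21, edgeR adjusted p = 0.385). Without treated 2 it was -2.85 for Ms4a7 and -1.87 for Ms4a6d. Unadjusted, 3 of these 4 intervals lay below 0, and the widest, that of Ms4a7, did not. In 3 of the 4, Ms4a6b, Ms4a6c and Ms4a7, all treated libraries were below all EAE libraries, as in 9.28% of all tested genes. These members were high in EAE by choice, and Ms4a7 passed the filter mainly through its EAE libraries. For Ms4a6b the separation rests on 1.17 CPM in EAE 1 against 1.16 CPM in treated 2. With DESeq2, Ms4a6c passed (log2 difference -1.59, DESeq2 adjusted p = 0.0267), where 3.84% of all genes with a DESeq2 adjusted p did.

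In the comparison of treated EAE with naive mice, which shares the naive libraries with the first, no gene of the 18644 passed (0.0% of all tested genes), and 318 (1.71%) had an unadjusted p under 0.05 in edgeR. By DESeq2 3 genes passed (0.0109% of those with an adjusted p), none of them a member. The log2 differences of the members were 1.37 for Ms4a6c (95% interval 0.28 to 2.46), 0.78 for Ms4a6d (-0.27 to 1.83), 0.68 for Ms4a6b (-0.44 to 1.79) and 0.60 for Ms4a7 (-1.68 to 2.89), with edgeR adjusted p = 0.9999 for each. In 2 of the 4 tested members, Ms4a6b and Ms4a6c, all treated libraries were above all naive libraries, where 3.51% of all tested genes were so. For Ms4a6c that rests on the near tie of treated 3 and naive 2, whose order the scaling reverses. The intervals hold both no difference and a several-fold higher level for Ms4a6b, Ms4a6d and Ms4a7, and without treated 2 the value of Ms4a6d was 0.08, so these data do not show that their levels returned to those of naive mice.

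**Figure D2:**
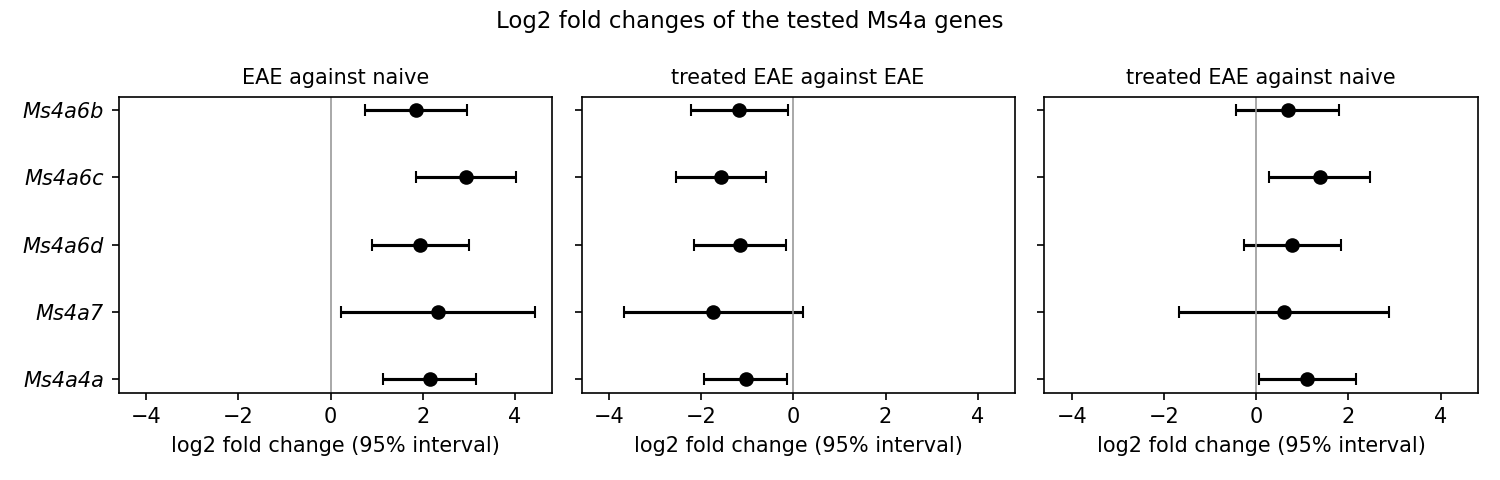
Fitted log2 differences (horizontal axis) of the 4 tested members and of Ms4a4a in the 3 comparisons, with points for the estimate and bars for its 95% interval from edgeR. All 5 genes lie above 0 in EAE against naive, a comparison used in choosing the members, and below 0 in treated against untreated EAE, where the interval of Ms4a7 takes in 0.

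Of the other 14 Ms4a symbols of the table, 7 were silent. Ms4a5, Ms4a10, Ms4a12, Ms4a13, Ms4a18, Ms4a19 and Ms4a20 had no count in any library, and the remaining 7 had some. Ms4a2, the gene of the beta chain of the high-affinity IgE receptor of mast cells and basophils, had 5 counts in all, and Ms4a3, a gene of myeloid precursors, had 2. Ms4a14 had 50 counts over the 9 libraries, Ms4a15 and Ms4a8a 28 each, and Ms4a4d 16. Ms4a15 was at 7, 4 and 8 counts in naive, 2, 0 and 0 in EAE and 5, 0 and 2 in treated mice; of these 7 genes, Ms4a15 and Ms4a3 had their highest library in the naive group. Ms4a8a had 0, 3 and 16 counts in EAE 1, 2 and 3 and at most 5 in any other library.

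Ms4a4a (chr19:11375523-11392790, plus strand), which lies between Ms4a7 and Ms4a4c and is known from macrophages, was the only other Ms4a gene with enough counts to be tested. It had 0.134, 0.110 and 0.172 CPM in naive 1, 2 and 3, 0.519, 0.873 and 0.486 CPM in EAE, and 0.440, 0.237 and 0.220 CPM in treated mice. The 3 groups did not overlap. Its log2 difference was 2.15 between EAE and naive (SE 0.45). It was -1.04 between treated and untreated EAE (SE 0.41, edgeR adjusted p = 0.270), which did not pass. Like Ms4a7, it entered the test mainly through its EAE libraries.

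**Figure D3:**
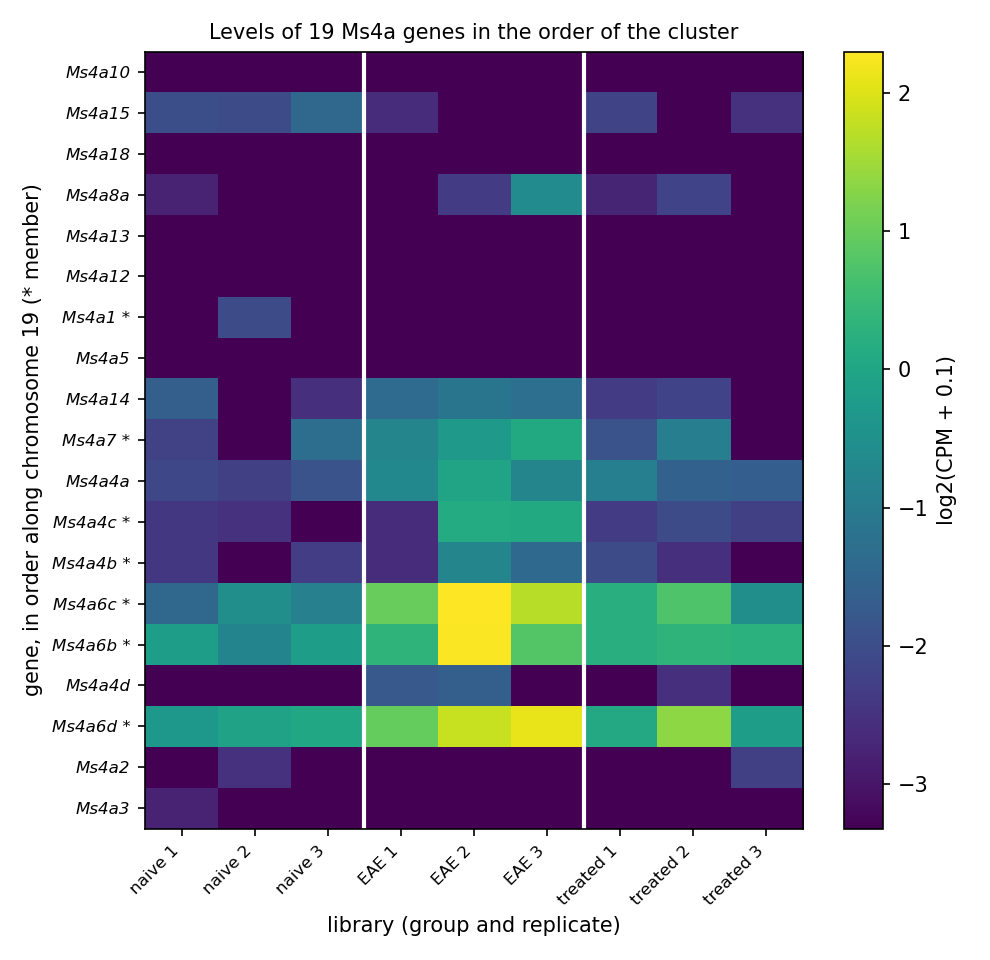
Levels of the 19 Ms4a genes found in the annotation, as log2(CPM + 0.1) by colour, with genes in their order along chromosome 19 (vertical axis, members starred) and the 9 libraries in groups (horizontal axis). The bright cells fall in Ms4a6c, Ms4a6b and Ms4a6d, most of all in EAE 2 and EAE 3, with a fainter block from Ms4a14 to Ms4a4b, and the genes toward the low end of the cluster are dark but for Ms4a15 and Ms4a8a.

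Cells that could carry these transcripts were followed through lists of marker genes. In bulk tissue, more cells of a type and more RNA per cell cannot be told apart. Genes shared by all myeloid cells were highest in EAE 2 and EAE 3, as most members were: their summed level was 246, 250 and 198 CPM in naive 1 to 3, 263, 624 and 528 in EAE, and 261, 319 and 290 in treated mice. The 13 tested genes of this list had a median log2 difference of 0.99 between EAE and naive and all 13 were above 0, yet none passed the test. Ctss, the gene of the lysosomal protease cathepsin S, went from 43.4 ± 5.85 to 133 ± 62.6 CPM (SD, n = 3; edgeR adjusted p = 0.0713), and was at 59.6 ± 10.6 in treated mice. Lyz2, the gene of lysozyme in macrophages, was at 4.95 ± 0.380, 47.5 ± 44.0 and 9.65 ± 4.31 CPM. EAE 1 was the lowest EAE library of the myeloid sum, as it was for the members, and treated 2 the highest treated library.

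Genes of homeostatic microglia, by contrast, had a median log2 difference of 0.04 between EAE and naive, with 6 of 12 above 0 and 6 below, and none passed. Their sum was 402, 418 and 348 CPM in naive, 346, 637 and 429 in EAE and 391, 415 and 463 in treated mice, and the groups overlapped. Csf1r, the growth factor receptor that microglia need to survive, was at 94.1 ± 11.5, 145 ± 53.5 and 106 ± 6.28 CPM in naive, EAE and treated mice (SD, n = 3 each). Tmem119, a gene of resident microglia, was at 18.7 ± 2.24, 26.4 ± 9.62 and 22.6 ± 2.25 CPM. Slc2a5, also on this list, was lower on average in EAE, at 4.93 ± 0.814, 3.66 ± 0.822 and 4.93 ± 0.395 CPM. So was Fcrls, at 24.5 ± 0.915, 20.1 ± 3.86 and 29.4 ± 3.63 CPM.

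Monocyte and macrophage genes had a median log2 difference of 2.12 between EAE and naive over 10 tested genes. S100a4 (1.92, SE 0.28, edgeR adjusted p = 0.0221), the matrix gene Fn1 (0.96, SE 0.17, edgeR adjusted p = 0.0398) and the scavenger receptor gene Msr1 (5.42, SE 1.03, edgeR adjusted p = 0.0482) rose, and 0 fell. Fn1 is also made by cells other than macrophages. Ccr2, the chemokine receptor of inflammatory monocytes, was at 0.262 ± 0.0981 in naive, 2.11 ± 1.50 in EAE and 0.631 ± 0.324 CPM in treated mice. The summed level was 78.1, 68.7 and 85.2 CPM in naive, 106, 150 and 200 in EAE and 108, 101 and 99.2 in treated mice. In treated against untreated EAE the median of the list was -1.64 and none of the 10 passed.

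Border macrophage genes had a median log2 difference of 0.96 between EAE and naive over 11 tested genes, and Stab1, a scavenger receptor gene, rose (0.96, SE 0.15, edgeR adjusted p = 0.0280). F13a1 was at 1.12 ± 0.175, 5.51 ± 3.24 and 1.69 ± 0.856 CPM in naive, EAE and treated mice (SD, n = 3 each). All 11 log2 differences were above 0, from 0.17 for Pf4 to 2.52 for Siglec1. In 2 of the 11, Stab1 and F13a1, all EAE libraries were above all naive libraries, as in 12.2% of all tested genes. The sum was 31.2, 33.4 and 34.3 CPM in naive, 55.3, 105 and 56.6 in EAE, and 46.4, 42.9 and 37.7 in treated mice. The group order held for the sum, but EAE 2 was the highest library here while Ms4a7 was highest in EAE 3. The choroid plexus holds macrophages of its own, and its genes had their highest sum in EAE 1 (899 CPM, against 27.2 and 105 in EAE 2 and 3). Whether choroid plexus tissue bears on the level of Ms4a7 was not tested. Genes of meningeal fibroblasts summed to 145, 214 and 80.0 CPM in EAE 1 to 3 and to 34.0 to 146 in the other libraries.

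Among 12 B cell genes, 0 of 6 tested passed in EAE against naive, with a median of 0.33, and their summed level was 6.30 to 6.69 CPM in naive, 5.91 to 10.7 in EAE and 5.52 to 5.81 in treated mice. Cd22 is a B cell gene that activated myeloid cells of the brain also carry, and it was at 0.256 ± 0.226 in naive, 1.55 ± 0.919 in EAE and 0.239 ± 0.111 CPM in treated mice (SD, n = 3 each).

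Of the 14 T cell genes in the table, 0 of 7 tested passed, with a median of 0.34. In 3 of the 7, Cd247, Cd28 and Il7r, all EAE libraries were above all naive libraries, as in 12.2% of all tested genes. Cd3d, Cd3e and Cd3g, which encode the CD3 chains of the T cell receptor, were at or below 0.259 CPM in all 9 libraries. Cd3d was at 0 in all 3 treated libraries. Cd3e was at 0.130, 0.259 and 0.208 CPM in EAE 1 to 3 (4, 8 and 6 counts), and at most 0.119 CPM in any other library. The sum of the list ran from 5.79 to 24.0 CPM, above the sum of the 7 members in each library but EAE 3, and most of its range came from Cd4. Cd4, which T helper cells and some macrophages carry, was at 18.98, 3.37 and 1.10 CPM in naive 1 to 3. It was at 8.60, 12.9 and 0.591 in EAE, and 2.25, 9.98 and 3.12 in treated mice. The striatal genes were likewise highest in naive 1 and EAE 2 and lowest in naive 3 and EAE 3. Whether striatal tissue bears on the level of Cd4 was not tested. Il7r, the receptor gene for a survival cytokine of T cells, was at 0.518 ± 0.119, 1.98 ± 0.872 and 0.619 ± 0.161 CPM (SD, n = 3 each; edgeR adjusted p = 0.0600 in EAE against naive). Of the 7 mast cell and basophil genes listed, the 5 genes Fcer1a, Cpa3, Mcpt4, Mcpt8 and Cma1 had no count in any library, beside the 5 counts of Ms4a2. The part of each of these cell types in the members' levels was not tested.

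**Figure D4:**
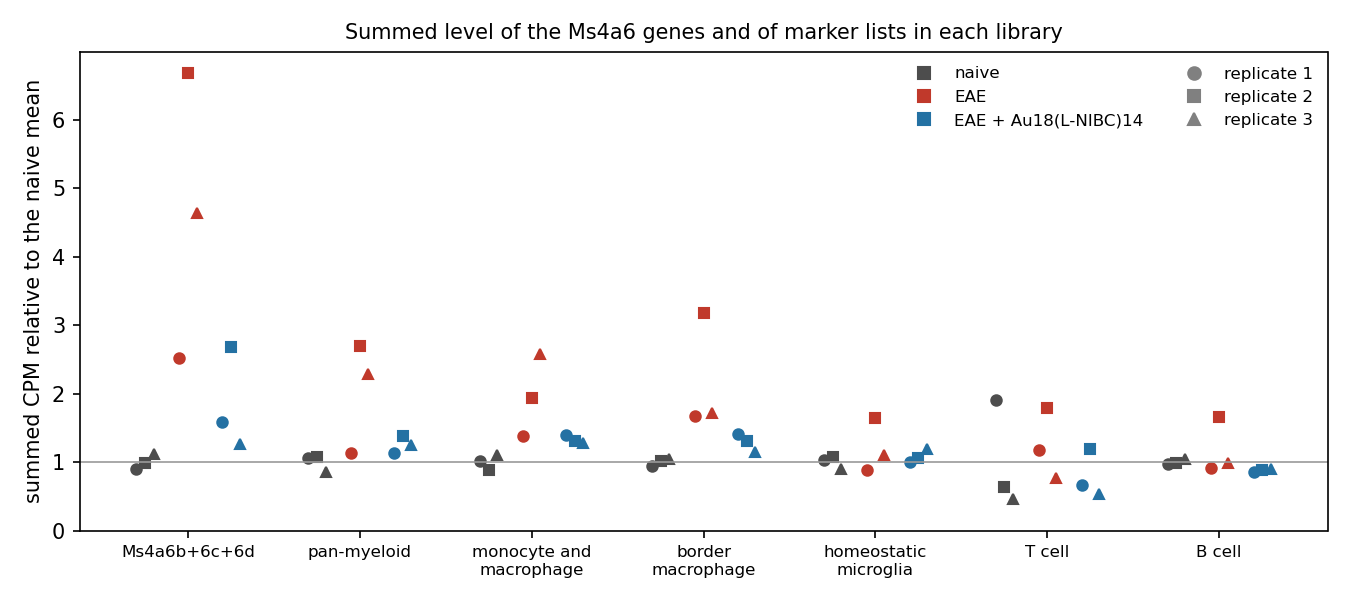
Summed CPM of Ms4a6b, Ms4a6c and Ms4a6d and of 6 marker lists in each library, divided by the mean of the 3 naive libraries (vertical axis). Colours are groups and symbols are replicate numbers. Among these sums that of the Ms4a6 genes, chosen with their EAE levels known, moves farthest in EAE. A few abundant genes dominate the sums of the marker lists. Pan-myeloid, monocyte and border macrophage sums are above 1 in each EAE library. The sums of homeostatic microglia, T cell and B cell genes have EAE libraries on both sides of 1.

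The Ms4a6 genes were also set against the summed CPM of the lists, sums that a few abundant genes dominate. Per 100 CPM of the pan-myeloid list, Ms4a6b, Ms4a6c and Ms4a6d together had 0.709, 0.764 and 1.10 CPM in naive 1 to 3, 1.86, 2.08 and 1.70 in EAE, and 1.18, 1.63 and 0.848 in treated mice. EAE libraries were above all others in this ratio, and treated libraries overlapped the naive range. Per 100 CPM of homeostatic microglia genes the ratio was 0.434 to 0.624 in naive, 1.42 to 2.10 in EAE and 0.532 to 1.25 in treated mice. EAE 1, whose pan-myeloid sum of 263 CPM was close to the 250 CPM of naive 2, had a pan-myeloid ratio between those of EAE 2 and EAE 3, but the lowest EAE ratio for the homeostatic list. Per 100 CPM of the monocyte and macrophage list the ratio was 2.23 to 2.78 in naive, 4.50 to 8.65 in EAE and 2.48 to 5.15 in treated mice, so that treated and EAE libraries overlapped. That sum is mostly Fn1 and Vcan, matrix genes at 51.1 and 23.9 CPM on average in naive mice. Gene by gene, the median log2 difference of 2.12 for that list between EAE and naive was above those of Ms4a6b (1.85) and Ms4a6d (1.95). It was below that of Ms4a6c (2.95). The border macrophage list gave 5.60 to 6.33, 8.86 to 15.9 and 6.52 to 12.1. These ratios are descriptions, since the Ms4a6 genes were chosen with their EAE levels known.

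Pathways that touch the family were also followed. Of the Fc receptor genes, which include the IgE receptor chain that partners with Ms4a2, 0 of 7 tested passed in EAE against naive, with a median of 1.22. Fcgr3, the gene of a low-affinity IgG receptor, was at 8.58 ± 1.72, 25.6 ± 10.9 and 11.1 ± 2.93 CPM in naive, EAE and treated mice (SD, n = 3 each; edgeR adjusted p = 0.0600), and its shared signalling chain gene Fcer1g was at 5.15 ± 0.780, 10.6 ± 3.79 and 6.43 ± 1.59. In the Trem2 pathway, 0 of 9 passed, with a median of 0.55. Trem2 itself was at 10.9 ± 2.50, 13.8 ± 5.65 and 10.2 ± 1.27 CPM (edgeR adjusted p = 0.633 in EAE against naive). Apoe, a ligand of Trem2, was at 1388 ± 128, 2037 ± 350 and 1361 ± 131 CPM, and the adaptor gene Tyrobp at 7.44 ± 0.586, 12.7 ± 4.28 and 8.23 ± 0.399. Tetraspanins, a separate family of proteins that also cross the membrane 4 times, had 0 of 11 past the threshold and a median of 0.26. Tspan7, the tetraspanin with the smallest p, was lower in EAE, with 780.3 to 848 CPM against 989 to 1067 in naive and 982 to 1088 in treated mice (edgeR adjusted p = 0.0693 in EAE against naive). Cd53 of leukocytes was at 5.41 ± 0.513, 9.23 ± 3.17 and 5.95 ± 0.391 CPM. In treated against untreated EAE, 0 genes of these 3 lists passed, with medians of -0.72, -0.58 and -0.16.

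Across libraries the tested members followed each other to different degrees. Over the 9 libraries the Pearson correlation of log2 CPM was 0.93 between Ms4a6c and Ms4a6d, 0.82 between Ms4a6b and Ms4a6c, 0.84 between Ms4a6d and Ms4a7 and 0.65 between Ms4a6b and Ms4a7. The groups themselves contribute to each of these values, and the libraries share their depth and their tissue. Among 15713 genes with a mean of at least 1 CPM, the closest to Ms4a6b were Parp9 (r = 0.97), Abcg2 (0.96), Slamf9 (0.96), Adgre1 (0.96) and Ggta1 (0.96), and Adgre1 is the gene of the macrophage marker F4/80. The closest to Ms4a6d were Pirb (0.97), A2m (0.97), Rac2 (0.97), Gm4951 (0.96) and Fcgr2b (0.96), with Fcgr2b the inhibitory IgG receptor gene and Rac2 a GTPase gene of blood cells.

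The closest to Ms4a6c were Mt2 (r = 0.98), Ctsc (0.97), Prr5 (0.96), Map3k6 (0.96) and Hspb8 (0.96). They include a metallothionein gene, a lysosomal protease gene and a small heat shock protein gene. With group means removed the values were 0.97 for Mt2, 0.89 for Ctsc, 0.83 for Prr5, 0.76 for Map3k6 and 0.88 for Hspb8. Mt2 was at 47.6, 66.6 and 57.6 CPM on average in naive, EAE and treated mice, a far smaller span than that of Ms4a6c. The closest to Ms4a7 were Zfp628 (0.97), Crybg1 (0.96), Slc39a14 (0.95), Gtf2ird2 (0.95) and Fuca2 (0.93), which differed little between groups, such as 36.1, 39.1 and 36.1 CPM for Fuca2. These are the highest values among 15713 genes over 9 libraries and carry no p.

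Short sequence motifs were searched on both strands of the RefSeq promoters (250 bases before to 50 after the start). The RefSeq table held promoters of 5 members, 6 starts in all since Ms4a7 has a pair of them. GAGGAA, the core that PU.1 of myeloid cells binds, was found in 3 of the 6, those of Ms4a4c, Ms4a4b and the start of Ms4a7 at the higher coordinate, and in 28.3% of 32851 promoters. In Ms4a4c and Ms4a4b it lies in the shared run TGGGTGGGGAGGAAATG printed earlier, at 61 and 64 bases before the start. GGGNNNNNCC, a loose form of the NF-kB site, was in 3 of the 6 and in 50.8% of all promoters, in Ms4a4c and Ms4a4b within the shared run GGGGAAGTCCTG, and in Ms4a6c 189 bases before the start, outside the stretch printed. TGANTCA, the AP-1 site, was in 2 of the 6, Ms4a4b and the other start of Ms4a7, and in 7.81% of all promoters. None of the 6 held GAAANNGAAA, a core of interferon response elements (3.44% of all promoters), TTGCNNAA, a C/EBP site (10.8%), TTCNNNGAA, a STAT site (8.30%), or GNACANNNTGTNC, a glucocorticoid receptor element (0.475%). A match is a description of letters, and whether any factor binds there was not measured.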

How the data were processed

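The authors deposited 1 table of raw read counts per gene symbol. The series' design text names fastp for trimming, Hisat2 for alignment, bowtie2 for quantification and DESeq2 for the authors' own calls. Per the submitters' processing notes, FastQC was version 0.11.8 and the build mm10 (GRCm38). The annotation, strand setting and read length behind the counts were not found in those sources. Columns were matched to samples by title, and 9 further count columns that match no sample were not used. Genes with 2 counts outnumbered genes with 1 count by 3.80 to 4.43 times in each library, so 1 count may be less than 1 fragment.

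The counts were fitted with edgeR 4.0.16 under R 4.3.3 (filterByExpr, TMM scaling, estimateDisp, glmQLFit with robust estimation, glmQLFTest) over 9 libraries, with Benjamini-Hochberg adjustment over 18644 genes and a threshold of 0.05. The fit was tested on simulated data. CPM values carry TMM factors. Standard errors and intervals derive from the F statistic.

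The members, gene lists, tests and motifs were chosen with earlier results of these data known. Named from each list are up to 4 tested genes with the smallest p in EAE against naive, and for each tested member the 5 genes with the highest Pearson correlation of log2 CPM (prior count 2, mean log2 CPM of at least 0). Markers at 0, the CD3 genes, Cd4, Pf4, Trem2, Vcan and BE692007 were named after their values were seen. Gene models are from GENCODE M21 and promoters from RefSeq (GRCm38.p6).

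Same-numbered EAE and treated libraries deviated together from their group means (r = 0.17, 0.24 and 0.24), so these numbers were treated as pairs in an alternative fit. For naive and EAE libraries r was 0.05, 0.11 and 0.36, and for naive and treated libraries it was -0.25, -0.12 and 0.20. Unlike numbers also matched, such as naive 1 with treated 2 (r = 0.35). No label ties the numbers across groups. Alternatives were RLE scaling, no filter on counts, a filter of CPM above 1 in at least 3 libraries, only the 2 groups compared, the replicate number as a block, DESeq2 1.42.0, and leaving out each library.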

Additional observations from a re-analysis of the deposited data

How the results depend on the processing

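The counts of members that passed in EAE against naive are a description, since this comparison had prompted the choice of the family. There, 1 of the members passed, Ms4a6c. With the replicate block in a fit of only the 2 groups compared, 2 passed (Ms4a6c and Ms4a6d), and with DESeq2 4 passed (Ms4a4c, Ms4a6b, Ms4a6c and Ms4a6d). When each library was left out in turn the count ranged from 0 to 2: it was 0 without naive 1, naive 2, naive 3, EAE 2 or EAE 3, and 2 without EAE 1, when Ms4a4c passed beside Ms4a6c. The log2 difference of Ms4a6c stayed between 2.56 and 3.23 in all 16 alternatives. Over all genes, 184 passed in that comparison, against 240 without a filter, 726 with the replicate block in 2 groups, 1051 with DESeq2 and 2 (without naive 1) to 261 (without treated 3) when libraries were left out.

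In treated against untreated EAE, 0 members passed, against 1 with DESeq2 (Ms4a6c), and 0 in each other alternative, the replicate block included. Over all genes 41 passed there, against 46 with the replicate block, 3 in a fit of the 2 groups, 4 with both, 690 with DESeq2 and 4 to 38 when libraries were left out. The replicate block changed no other call of a member. In treated EAE against naive, the log2 difference of Ms4a7 was 0.60 and ranged from -0.51 (without treated 2) to 1.63 (without naive 3), so its direction rests on single libraries of few counts. Ms4a4a passed in EAE against naive with DESeq2 alone. The cause of these differences was not tested.

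Depth limits the low members: Ms4a1, Ms4a4b and Ms4a4c had at most 4, 15 and 31 counts in a library. Groups of 3 are too small for a test of single outlying libraries.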

Other observations

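Red cell genes were low in the EAE libraries, in which the members were high. The 5 erythrocyte genes summed to 131 to 175 CPM in naive, 7.16 to 23.6 in EAE and 102 to 380 in treated libraries, and their groups did not overlap between EAE and either other group. Hba-a2 and Hbb-bs, which encode haemoglobin chains and have near-identical copies, fell in EAE against naive (log2 difference -3.31 and -3.36, edgeR adjusted p = 0.0418 and 0.0478), and Hba-a2 rose in treated against untreated EAE (4.30, edgeR adjusted p = 0.0456). Blood left in the tissue carries leukocytes as well as red cells, and whether blood content bears on the levels of Ms4a genes was not tested.

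Zbtb46, a transcription factor gene of dendritic cells that endothelial cells also express, fell in EAE against naive, from between 15.6 and 18.0 CPM in naive to between 11.3 and 12.6 CPM in EAE (log2 difference -0.49, edgeR adjusted p = 0.0432), and was at 16.1 to 17.8 CPM in treated mice. Itgax, the gene of the integrin CD11c of dendritic cells and activated microglia, was at 0.168 ± 0.102 in naive, 2.17 ± 1.64 in EAE and 0.412 ± 0.0309 CPM in treated mice (SD, n = 3 each) and did not pass (edgeR adjusted p = 0.0635 in EAE against naive).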
